A study of Mus musculus with 2 samples.

Results

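A small group of cultured cells from dorsal tissue of the neonatal mouse heart carried RNA of collagens that are textbook products of cartilage. A cell was counted as a member when it held at least 1 unique molecular identifier (UMI, a tag that marks 1 captured RNA molecule) of at least 2 of the 3 genes Col10a1, Col9a1 and Col2a1. The rule found 147 members among 8926 dorsal cells, which was 1.65% of them (95% Clopper-Pearson interval 1.39 to 1.93%), and among 19575 cells of the whole series. The remaining 8779 dorsal cells are called the other dorsal cells. Because the measured counts of these genes chose the members, the levels of all genes in them are given as a description, without a test.

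Both libraries were made from 15 hearts of 3-day-old C57Bl6 mice of both sexes, whose cells were pooled across animals and grown as adherent cultures for 5 days before capture. Dorsal tissue took in pulmonary veins, sinoatrial node and cardiac ganglia. Ventral tissue took in the outflow tract base with pulmonary artery and proximal aorta. There was 1 library per domain, so that no replicate spread was available and dissection, culture and capture cannot be told apart from the domain. Cells were barcodes with at least 8000 UMIs and at most 20% mitochondrial UMIs. Members held a median of 15253 UMIs (lowest 8030, highest 66120) and 3636 genes, against 22913 UMIs (lowest 8006, highest 154705) and 4524 genes in the other dorsal cells. The dorsal matrix held 246920028 UMIs and the ventral matrix 264822916. The libraries had 22 cell barcodes in common, and 1 of them belonged to a member. Intervals are 95% intervals that cover counting error only, since cells of 1 library are not replicates. A level in CPM is the number of UMIs of a gene per 1000000 UMIs summed over a group of cells.

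Cartilage is built by chondrocytes, which secrete a network of collagen II, IX and XI fibrils filled with the proteoglycan aggrecan under the control of the transcription factors Sox9, Sox5 and Sox6. In growing bone these cells enlarge, switch on collagen X, and release matrix metalloproteinase 13, which cuts collagen II. The mouse heart is known to hold small cartilage-like foci near its valves and great arteries, and cells of developing valves share part of the cartilage programme.

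The genes of the rule encode the collagen X chain (Col10a1, chromosome 10, 34389981 to 34397085), a chain of collagen IX (Col9a1, chromosome 1, 24177610 to 24252684) and the collagen II chain (Col2a1, chromosome 15, 97975602 to 98004695), all in GENCODE M21 on GRCm38. Col10a1 had 375 CPM in members and 8.68 CPM in the other dorsal cells. Col9a1 had 202 CPM in members and 2.24 CPM in the other dorsal cells. Col2a1 had 122 CPM in members and 0.420 CPM in the other dorsal cells. These values were fixed by the rule and are background to what follows.

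The members did not carry the genes in equal measure. Col9a1 was seen in 134 members, Col2a1 in 121 and Col10a1 in 75. All 3 genes were seen in 36 members, Col9a1 with Col2a1 in 72, Col10a1 with Col9a1 in 26 and Col10a1 with Col2a1 in 13. Collagen X was therefore missing from the largest of these combinations. Where Col10a1 was seen it reached up to 100 UMIs in a member, whereas Col9a1 reached at most 21 and Col2a1 at most 16. The 10 members with the most Col10a1 held 59.0% of the Col10a1 UMIs of all members. The corresponding 10 members held 26.0% for Col9a1 and 25.6% for Col2a1, so that these genes were spread more evenly.

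**Figure D1:**
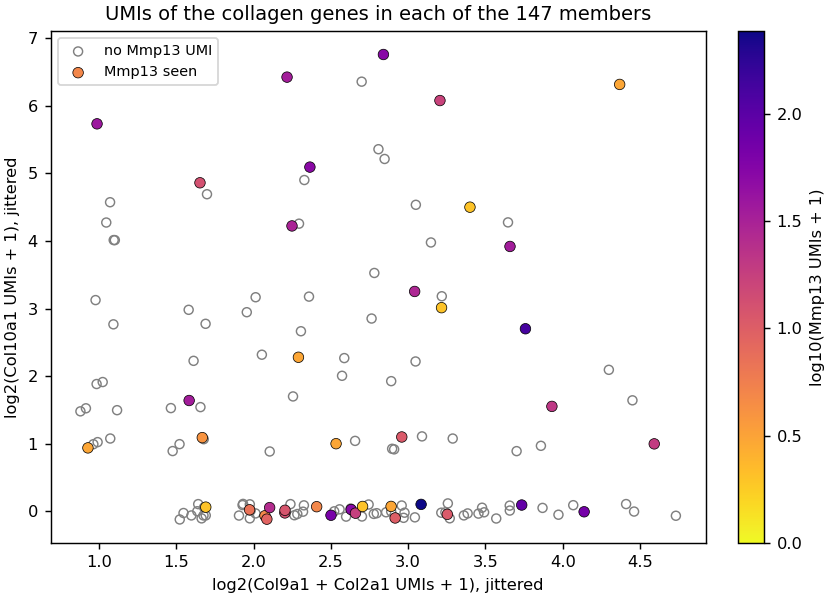
UMIs of Col10a1 (vertical axis) against the summed UMIs of Col9a1 and Col2a1 (horizontal axis) in each of the 147 members, both as log2(UMIs + 1) with a small jitter. Filled points are the 39 members with an Mmp13 UMI, coloured by their number, and open points the others; the row at the bottom holds the 72 members without Col10a1.

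At the edge of the rule, 14 members were chosen on exactly 2 UMIs of the genes, 78 held 3 to 9 and 55 held 10 or more, with a median of 7 and a highest value of 106. Just outside it were 540 dorsal cells with only 1 of the genes. Their median was 1 UMI, 273 of them had exactly 1, and 57 had 10 or more. Of these cells 295 had Col10a1 alone, 195 Col9a1 alone and 50 Col2a1 alone. The 57 cells with 10 or more UMIs of a single gene carried as much collagen RNA as many members. Thinning every cell to 8000 UMIs, which can only take UMIs away, left 99 of the 147 members (67.3%).

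Free RNA in droplets can place single UMIs in cells that do not make a gene. In 477 dorsal cells chosen by Schwann and glial markers, with a median of 13711 UMIs, Col10a1 was seen in 0.839%, Col9a1 in 1.05% and Col2a1 in 0.419%. In 118 cells chosen by endothelial markers, with a median of 22427.5 UMIs, Col10a1 was seen in 0.847% and the other 2 genes in none, which allows up to 3.08% by the Clopper-Pearson interval. In 205 macrophage-marked cells, with a median of 43028 UMIs, Col10a1 was seen in 3.90%, Col9a1 in 1.46% and Col2a1 in 0.488%. The Schwann and glial set and the macrophage set each held 2 members, and the endothelial set held 0. The Schwann and macrophage shares thus include members. Among the other dorsal cells the shares were 3.36% for Col10a1, 2.22% for Col9a1 and 0.570% for Col2a1. In barcodes with at most 100 UMIs, taken as free RNA, the dorsal library had 10.0 CPM of Col10a1, 4.06 CPM of Col9a1 and 2.71 CPM of Col2a1.

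When the dorsal cells were clustered without the 3 genes, 126 of the 147 members fell into a single cluster out of 24 (85.7%, interval 79.0 to 90.9%). This cluster, called the main cluster below, held 614 cells with a median of 13986 UMIs. Its leading genes were Mmp13, Dio2, Mmp3, Omd, Col9a2, Igf2, Cpxm2, Adgrg6, Mia and Lmo7. Members made up 20.5% of it, a further 267 of its cells had 1 of the genes, and 221 had none. The 21 members elsewhere were deep cells with a median of 39695 UMIs, and no other cluster held more than 3 of them. They included 2 in a cluster led by macrophage genes, 2 in a cluster led by nerve and glial genes and 1 in a cluster led by T-cell receptor genes.

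**Figure D2:**
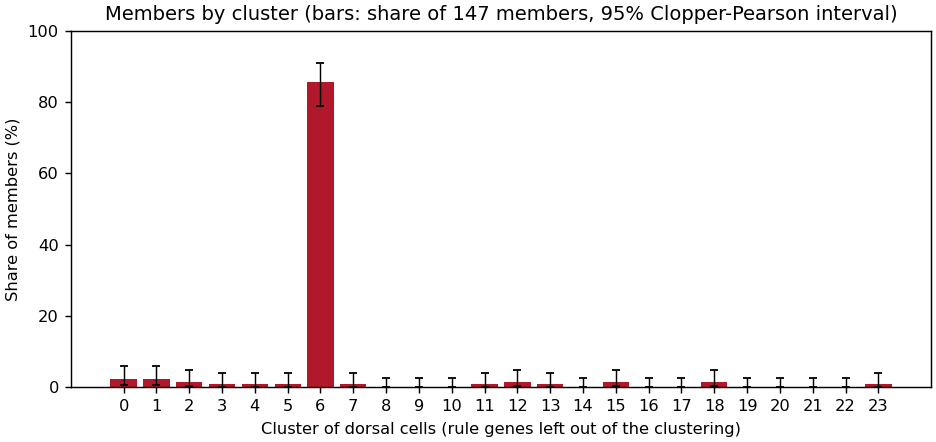
Share of the 147 members (vertical axis, %) in each of the 24 clusters of dorsal cells (horizontal axis), with Clopper-Pearson intervals; the rule genes were left out of the clustering. Cluster 6, the main cluster, held 85.7%, and no other cluster held more than 2.04%.

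Although they were 1.21% of the UMIs of all dorsal cells, members held 34.5% of the Col10a1, 52.4% of the Col9a1 and 78.0% of the Col2a1 UMIs. They also held 33.8% of the UMIs of Mmp13, which was not part of the rule. The main cluster, with 4.16% of all UMIs, held 89.8% of those of Mmp13, 73.6% of Dio2, 71.6% of Comp and 63.5% of Omd. Dorsal Mmp13 thus lay mostly in this cluster, in members and in their neighbours that missed the rule. Only the rule genes were left out of the clustering, and Mmp13, Dio2 and Omd were among the leading genes of the cluster. The shares of such genes in the cluster may therefore be partly fixed by how it was made. They are given as a description.

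Among 5884 genes at 20 CPM or more on either side, 182 were at least 2-fold higher (3.09%) and 234 at least 2-fold lower (3.98%) in members than in the other dorsal cells. The contrast is the one the rule used, and nothing is read from these shares. The highest ratios belonged to a mix of cartilage matrix, bone-associated and signalling genes. The collagen-cutting protease Mmp13 had the highest, with 414 CPM in members and 9.89 CPM in the other dorsal cells, a log2 ratio of 5.39 (5.28 to 5.49). Col9a2, another chain of collagen IX, had 63.7 CPM in members and 3.34 CPM in the other dorsal cells. Omd, which encodes the bone proteoglycan osteomodulin, had 84.7 CPM in members and 3.75 CPM in the other dorsal cells.

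Further genes among the 15 highest were of several kinds. Dio2, the deiodinase that makes active thyroid hormone, had 54.6 CPM in members and 4.06 CPM in the other dorsal cells. Alx1, a homeobox transcription factor of craniofacial mesenchyme, had 30.4 CPM in members and 2.37 CPM in the other dorsal cells. Mia, a secreted protein made by cartilage, had 27.5 CPM in members and 2.59 CPM in the other dorsal cells. The growth factor gene Igf2 was seen in 98.0% of members, with 955 CPM, and in 52.1% of the other dorsal cells, with 139 CPM. Spp1, which encodes the mineral-binding protein osteopontin, had 3272 CPM in members and 415 CPM in the other dorsal cells. Palmd, Gprin3, Adgrg6, Itih2, Tspan13 and Sorbs2 completed the set together with Mmp3, with log2 ratios of 2.95 to 3.86.

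Mgp, the matrix Gla protein that keeps cartilage and arteries from calcifying, was seen in every member, at 104 to 3418 UMIs with a median of 885. It was chosen after its values were seen. It made 52756 CPM of the members' UMIs and 11860.4 CPM of those of the other dorsal cells, a log2 ratio of 2.15. Unlike Mmp13 it was evenly spread, since the 10 members with the most held 16.6% of it.

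**Figure D3:**
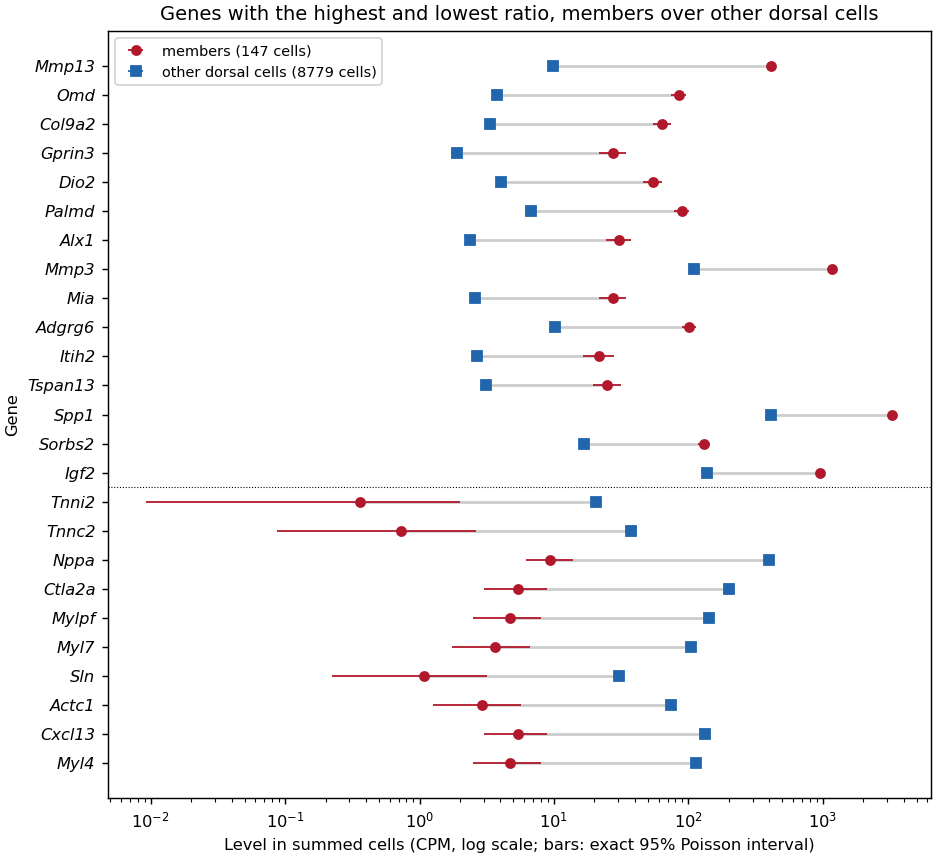
Level in CPM (log axis) in members (circles) and other dorsal cells (squares) for the 15 highest and 10 lowest ratios, with exact Poisson intervals. Mmp13, at 414 CPM in members and 9.89 CPM in the other dorsal cells, stands at the top, and the lowest ratios belong mostly to muscle genes.

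The 10 lowest ratios were mostly those of muscle genes. Nppa, the atrial natriuretic peptide, had 9.41 CPM in members and 401 CPM in the other dorsal cells. Myl7, Myl4, Sln and Actc1, of atrial muscle, had log2 ratios of -4.85, -4.61, -4.80 and -4.69. Tnni2, Tnnc2 and Mylpf, of fast skeletal muscle, had log2 ratios of -5.83, -5.69 and -4.92. Nppa, Myl7 and Sln were leading genes of a cluster of 38 dorsal cells, and Mylpf, Tnnc2 and Tnni2 of a cluster of 37, neither of which held a member. The chemokine Cxcl13 had 5.43 CPM in members and 133 CPM in the other dorsal cells. The last, Ctla2a, had 5.43 CPM in members and 201 CPM in the other dorsal cells, and it has a close paralogue with which reads could be split.

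Mmp13 RNA was concentrated in few members. It was seen in 39 of 147 members (26.5%, interval 19.6 to 34.4%) and in 229 of 8779 other dorsal cells (2.61%). Among the 39, counts ran from 1 to 243 UMIs with a median of 12, and 24 members had 10 or more. The 10 members with the most held 71.7% of it. For comparison, Mmp13 was seen in 0.839% of the Schwann and glial cells and in 14.6% of the deeper macrophage-marked cells, and it had 11.6 CPM in the free RNA. Mmp3, stromelysin-1, was seen in 59 members and in 2069 of the other dorsal cells, and its 10 highest members held 72.6% of its 3242 UMIs. It had 1173 CPM in members and 109 CPM in the other dorsal cells.

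Within the main cluster the proteases tended to share cells. Of the 105 cells with an Mmp13 UMI, 72.4% (62.8 to 80.7%) also had Mmp3, against 38.1% (33.9 to 42.5%) of the 509 without Mmp13. The median depth was 15400 UMIs in cells with Mmp13 and 13769 in cells without it. These genes lie close together on chromosome 9, Mmp13 from 7272514 to 7283331 and Mmp3 from 7445822 to 7455975. The 250 bases before their start sites are printed because both hold the letters TGANTCA, the AP-1 motif, shown in capitals. In Mmp13 the capitals further upstream mark ACCACA, a RUNX motif. The sequences are from RefSeq on GRCm38.p6, plus strand, chr9:7272264-7272513 for Mmp13 and chr9:7445572-7445821 for Mmp3, 5′ to 3′.
Mmp13: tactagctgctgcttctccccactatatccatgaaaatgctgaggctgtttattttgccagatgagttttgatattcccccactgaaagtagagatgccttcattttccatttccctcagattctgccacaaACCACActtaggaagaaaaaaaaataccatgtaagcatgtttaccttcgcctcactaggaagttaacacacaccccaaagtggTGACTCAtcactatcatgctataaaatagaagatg
Mmp3: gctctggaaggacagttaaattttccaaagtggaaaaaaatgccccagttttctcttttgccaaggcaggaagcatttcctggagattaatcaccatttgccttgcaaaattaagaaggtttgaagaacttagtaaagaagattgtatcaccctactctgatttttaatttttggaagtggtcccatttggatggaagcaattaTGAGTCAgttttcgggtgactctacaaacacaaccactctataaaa
The AP-1 match began at position -35 of Mmp13, as TGACTCA, and at -46 of Mmp3, as TGAGTCA, counted from the start site. The RUNX match of Mmp13 began at -118. On either strand, AP-1 letters were found in 6.75% of 32851 promoter windows of this length, RUNX letters in 14.0% and both in 1.01%, and no match was found in the Col10a1 window (chr10:34389731-34389980). A match describes letters and not binding. The AP-1 subunit genes Fos (185 CPM in members and 175 CPM in the other dorsal cells), Jun (212 CPM in members and 259 CPM in the other dorsal cells) and Junb (454 CPM in members and 497 CPM in the other dorsal cells) were within 2-fold. Of the RUNX family, Runx3 had 15.9 CPM in members and 1.23 CPM in the other dorsal cells. Main cluster cells with 0, 1, 2 and 3 of the rule genes had 13.7, 17.7, 17.6 and 21.3 CPM of Runx3. Runx2, the bone and hypertrophy factor, had 6.51 CPM in members and 8.33 CPM in the other dorsal cells.

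Cartilage matrix genes outside the rule were mostly higher in members. Of its 18 genes with at least 50 UMIs in the dorsal cells, 11 were at least 2-fold higher in members, 2 at least 2-fold lower and 5 within 2-fold, with a median log2 ratio of 1.44. Over all 14810 genes with 50 UMIs, 5.02% were as high, 8.99% as low, and the median was 0.00, with a gene at 0 on a side put at its limit of 3 counts. The same shares stand beside every later list count of members over the other dorsal cells. Nothing is read from a count near them. Col11a1, a chain of collagen XI, was seen in all 147 members at 1 to 26 UMIs with a median of 10. It had 578 CPM in members and 98.8 CPM in the other dorsal cells. Lect1, which encodes the anti-angiogenic cartilage protein chondromodulin, had 13.0 CPM in members and 0.221 CPM in the other dorsal cells. Comp, the cartilage oligomeric matrix protein, had 18.8 CPM in members and 0.751 CPM in the other dorsal cells. Hapln1, the link protein that ties aggrecan to hyaluronan, had 16.3 CPM in members and 0.711 CPM in the other dorsal cells. Col9a3 and Col11a2, the remaining chains of collagens IX and XI, had 6.87 and 3.98 CPM in members and 0.508 and 0.530 CPM in the other dorsal cells.

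Other defining cartilage genes were scarce. Acan, aggrecan itself, had 9 UMIs in 9 members, which made 3.26 CPM (1.49 to 6.18), and 1.25 CPM in the other dorsal cells. By this ratio it is among the genes counted above as at least 2-fold higher, on few UMIs. Within the main cluster it had 2.52 CPM in members and 3.31 CPM in the other cells. Matn1 and Ucma had no UMI in members, and Chad, Cytl1 and 3110079O15Rik had 1 UMI each. Prg4, the lubricin of joint surfaces, and Cilp had no UMI in members either. A count of 0 in 147 members allows a share of cells with a UMI of up to 2.48% by the Clopper-Pearson interval, which does not limit the share of cells that express the gene.

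Of 17 chondrogenic regulators, 5 were at least 2-fold higher, 2 lower and 10 within 2-fold, with a median of 0.08. Sox9, the master regulator of cartilage, had 27.1 CPM in members and 20.9 CPM in the other dorsal cells, a log2 ratio of 0.38. It was seen in 36.7% of members and 26.7% of the other dorsal cells, at no more than 4 UMIs in a member. After all dorsal cells were thinned to 8000 UMIs, Sox9 had 19.8, 24.5, 42.2 and 34.1 CPM in cells with 0, 1, 2 and 3 of the rule genes, with intervals of 27.6 to 61.8 CPM for 2 genes and 12.5 to 74.2 CPM for 3. The median of the regulator list was 0.62 after thinning. The partners of Sox9 differed more. Sox5 had 28.2 CPM in members and 8.20 CPM in the other dorsal cells. Sox6 had 26.4 CPM in members and 6.30 CPM in the other dorsal cells. In main cluster cells with 0, 1, 2 and 3 of the rule genes, Sox5 had 23.3, 26.6, 38.1 and 16.0 CPM. Sox6 had 22.2, 25.9, 33.9 and 31.9 CPM there, so neither was particular to members within that cluster. The forkhead factor Foxc1 had 106 CPM in members and 16.5 CPM in the other dorsal cells. Barx1, Pax1 and Pax9 were low, with 4.34 and 0.362 CPM for Barx1 and Pax1 and no UMI for Pax9 in members.

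The hypertrophy and bone lists were split. Beside their counts stand 5.02% of all genes with 50 UMIs at least 2-fold higher and 8.99% at least 2-fold lower. Of 16 hypertrophic genes, 4 were at least 2-fold higher, which were Mmp13, Runx3, Spp1 and Fgfr3 (5 UMIs in members), and 2 were lower, with a median of 0.22. Ihh, Sp7, Ibsp, Panx3, Phospho1, Dlx5 and Dlx6 had no UMI in members. Alpl, the phosphatase needed for mineral deposition, had 1 UMI. Vegfa, which draws vessels into hypertrophic cartilage, had 23.5 CPM in members and 52.6 CPM in the other dorsal cells. Of 14 osteoblast genes, 3 were higher, namely Omd, Tnfrsf11b and Bmp2, and 2 were lower, with a median of -0.05. Col1a1 and Col1a2, the collagen I chains of bone and fibrous tissue, had 2720.2 and 3836 CPM in members and 3237 and 4324 CPM in the other dorsal cells. Since Col2a1, Col9a1 and Col10a1 chose the members, their levels do not bear on the label chondrogenic. Among the other cartilage genes, Col11a1, Comp, Hapln1 and Lect1 were higher in members than in the other dorsal cells, whereas the near absence of Acan and the absence of Matn1 and Ucma went against the label. The cells are therefore called here by the genes of the rule.

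**Figure D4:**
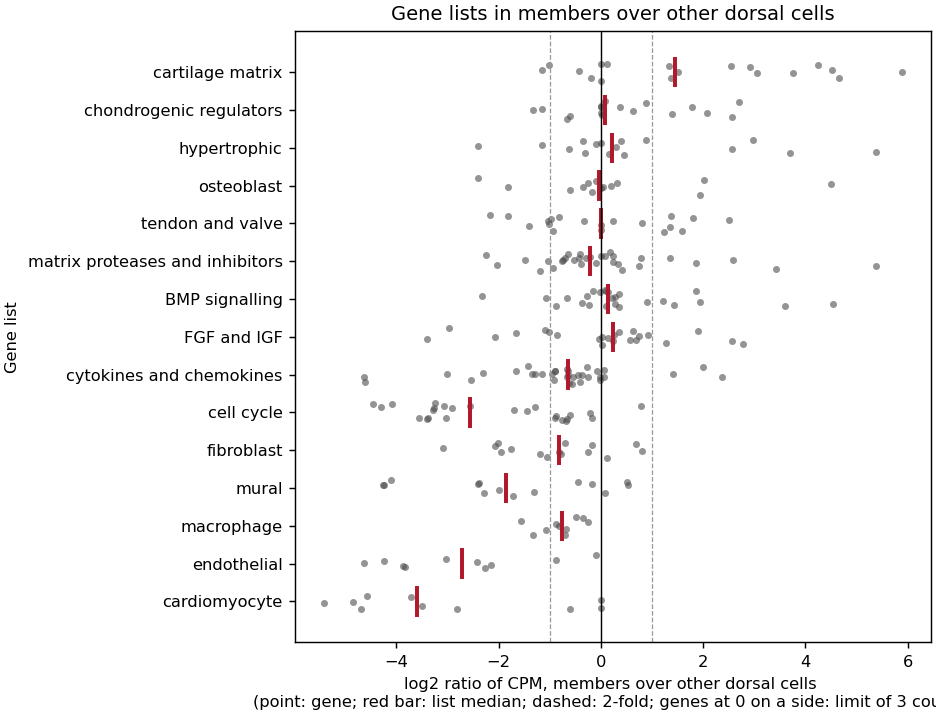
Log2 ratio of CPM in members over other dorsal cells (horizontal axis) for the genes of 15 lists with at least 50 UMIs, with a red bar at each list's median and dashed lines at 2-fold. The cartilage matrix list has a median of 1.44, the hypertrophic and osteoblast lists lie near 0, and the cell cycle list has a median of -2.57.

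Signalling lists had medians near 0 with single genes far from it. For all genes with 50 UMIs the shares were 5.02% at least 2-fold higher and 8.99% at least 2-fold lower. Of 25 genes of the bone morphogenetic protein (BMP) pathway 6 were at least 2-fold higher and 2 lower, with a median of 0.13. The 6 were the ligands Bmp2, Bmp3, Bmp4, Bmp5 and Bmp7 and the antagonist Grem1. Bmp5 had 17.4 CPM in members and 0.747 CPM in the other dorsal cells, Bmp4 85.8 CPM in members and 23.8 CPM in the other dorsal cells. The response genes Id1, Id3 and Smad6 were within 2-fold. Of 23 FGF and IGF genes 4 were higher, namely Igf2, Igfbp5, Fgfr2 and Fgfr3, and 6 lower, led by Igfbp2 with 9.77 CPM in members and 103 CPM in the other dorsal cells. Of 24 Wnt genes 4 were higher, including Tcf7 and the inhibitor Wif1, and 5 lower, including the antagonists Sfrp1 and Sfrp2. Of 14 hedgehog genes none was at least 2-fold higher and 3 were lower. Ptch1, the receptor and target gene, had 4.34 CPM in members and 5.40 CPM in the other dorsal cells. Ctgf, a target of YAP that marks cartilage and fibrous tissue, had 835 CPM in members and 152 CPM in the other dorsal cells, as 1 of 3 genes at least 2-fold higher among 16 of the TGF-beta and YAP list. H19, the imprinted RNA next to Igf2, also chosen after its values were seen, had 1242.5 CPM in members and 233 CPM in the other dorsal cells.

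Among 19 tendon and valve genes 6 were at least 2-fold higher and 5 lower, with a median of 0.00. The tendon factors Mkx and Scx had 13.0 and 6.87 CPM in members and 2.30 and 2.69 CPM in the other dorsal cells. Fmod, a proteoglycan that orders collagen fibrils, had 86.8 CPM in members and 24.8 CPM in the other dorsal cells. Postn and Col14a1 were lower, with 83.2 and 26.4 CPM in members and 293 and 119 CPM in the other dorsal cells. Of 31 matrix proteases and inhibitors 5 were higher, which were Mmp13, Mmp3, Mmp12, Timp4 and Serpine2, and 5 were lower. Of 21 foregut and airway mesenchyme genes, 5 were higher, including Hoxa5 and Tbx3, and 2 lower. Isl1, the gene in the series title, had 7 UMIs in members, which made 2.53 CPM, against 1.14 CPM in the other dorsal cells.

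Cell cycle RNA was lower in members than in the other dorsal cells, and about level with the other cells of their cluster. Of 25 cell cycle genes 16 were at least 2-fold lower and none higher, with a median of -2.57 that was -0.78 after thinning and also with all 3 rule genes required. Within the main cluster the list summed to 150.4 CPM in members and 139.6 CPM in the other cells, and none of 7 genes was 2-fold apart. Mki67, the proliferation antigen, had 3 UMIs in members, Top2a 6 and Ube2c 3, while Cenpf and Ccnb1 had none. Ccnd1, the cyclin of growth factor signalling, had 73.1 CPM in members and 42.3 CPM in the other dorsal cells. The cycle inhibitor Cdkn1c, p57, had 414 CPM in members and 163 CPM in the other dorsal cells.

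Of 34 cytokine and chemokine genes 10 were at least 2-fold lower and 3 higher, beside 8.99% and 5.02% of all genes with 50 UMIs. The 3 were Lcn2 (2119 CPM in members and 410 CPM in the other dorsal cells), Chil1 and the neutrophil chemokine Cxcl5 (885 CPM in members and 332 CPM in the other dorsal cells). Il6, Csf3 and Cxcl2 were among the lower ones, with 27.5, 7.96 and 260.1 CPM in members and 74.1, 39.2 and 821 CPM in the other dorsal cells.

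Most lists of markers of other cell types had negative medians in members over the other dorsal cells. Among all genes with 50 UMIs, 8.99% were at least 2-fold lower and 5.02% at least 2-fold higher. Of the 15 fibroblast markers 7 were at least 2-fold lower and none higher, with summed levels of 11032 CPM in members and 14469 CPM in the other dorsal cells. Of 14 mural markers 9 were lower, and their sum was 691 CPM in members and 2009 CPM in the other dorsal cells. Of 10 endothelial markers 8 were lower, with Emcn and Tie1 at 0 in members. Of 10 cardiomyocyte markers 7 were lower, with Myl2, Myh7 and Ryr2 at 0. Of 11 Schwann and glial markers 7 were lower and S100b, which cartilage also makes, was higher with 10 UMIs. Of 9 mesothelial markers 3 were lower and 6 within 2-fold, with a median of -0.79 that was 0.19 when each rule gene needed 2 UMIs and 1.04 when all 3 genes were needed. Their sum was 51.0 CPM in members and 98.6 CPM in the other dorsal cells. It was 90.4 CPM in members with Col10a1 and 4.73 CPM in members without it, and 1 member lay in the cluster led by Msln. In the 126 members of the main cluster the mesothelial sum was 7.07 CPM, against 9.66 CPM in its other cells. Of 10 macrophage markers 3 were lower and 7 within 2-fold, with summed levels of 559 CPM in members and 788 CPM in the other dorsal cells. In the 126 members of the main cluster this sum was 38.9 CPM, against 31.4 CPM in the other cells of that cluster.

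The closest cells to the members were those of their own cluster. The 126 members in the main cluster had a median of 14318.5 UMIs and its other 488 cells 13982.5, with ranges of 8030 to 43545 UMIs in members and 8043 to 49022 UMIs in the other cells. Of 2861 genes at 50 CPM or more on either side, 8 were at least 2-fold higher in members (0.28%) and 24 at least 2-fold lower (0.839%). These genes are named here after their values were seen. Higher were Palmd, Sorbs2, Hp, Lcn2, Tnfrsf11b, Mmp13, Ndufa4l2 and Ctgf. Mmp13 had 560 CPM in members and 255 CPM in the other cells of the cluster. Palmd had 115 CPM in members and 35.3 CPM in the other cells of the cluster. Sorbs2, an adaptor of actin fibres, had 140.3 CPM in members and 44.1 CPM in the other cells of the cluster.

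The genes lower in members than in their cluster were of several kinds, while none of 10 fibroblast markers with 50 UMIs in the cluster was 2-fold apart. Apod, apolipoprotein D, had 10.6 CPM in members and 60.2 CPM in the other cells of the cluster. The secreted growth factor Ptn had 95.4 CPM in members and 511 CPM in the other cells of the cluster. Agtr2, the type 2 angiotensin receptor, had log2 ratio -1.86, Igfbp3 -1.76, the matricellular Postn -1.76 and the homeobox gene Prrx2 -1.67. Barx1 had 1.51 CPM in members and 17.1 CPM in the other cells of the cluster, Osr2 5.55 CPM in members and 22.8 CPM in the other cells, and Tbx4 2.52 CPM in members and 10.5 CPM in the other cells. Of 14 foregut and airway mesenchyme genes with 50 UMIs in this cluster, these and 3 more were at least 2-fold lower in members and none was higher, beside 2.01% of all genes with 50 UMIs that were as low.

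Several genes that set members apart from the dorsal cells at large did not set them apart within their cluster. Mgp had 65445 CPM in members and 65890 CPM in the other cells of the cluster. Igf2 had 1151 CPM in members and 1157 CPM in the other cells of the cluster. Mmp3 had 1575 CPM in members and 1490 CPM in the other cells of the cluster, and Dio2 had 62.6 CPM in members and 87.7 CPM in the other cells. Cxcl5, H19 and Foxc1 had 1089, 1323 and 87.5 CPM in the other cells of the cluster. In all 147 members they had 885, 1242.5 and 106 CPM. Of 8 cartilage matrix genes with 50 UMIs in this cluster, 2 were at least 2-fold higher in members, 1 lower and 5 within 2-fold, with a median log2 ratio of 0.74. Over 9275 genes with 50 UMIs, 0.539% were as high and 2.01% as low. Matn4 had 7.57 CPM in members and 15.3 CPM in the other cells of the cluster. Lect1 had 16.2 CPM in members and 5.42 CPM in the other cells of the cluster, Hapln1 20.2 CPM in members and 8.60 CPM in the other cells, and Col9a2 79.2 CPM in members and 42.6 CPM in the other cells. Col11a1 had 706 CPM in members and 405 CPM in the other cells of the cluster. Sox9 had 33.3 CPM in members and 23.9 CPM in the other cells of the cluster. Endothelial markers summed to 41.9 CPM in members and 45.8 CPM in the other cells of the cluster, and cardiomyocyte markers to 27.8 CPM in members and 37.4 CPM in the other cells.

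Within the main cluster, levels were also compared along the number of rule genes seen, which was 0 in 221 cells, 1 in 267, 2 in 95 and 3 in 31. Mmp13 had 93.7, 389, 523 and 653 CPM in this order. Sorbs2 had 24.8, 60.0, 127 and 174 CPM. Col11a1 had 308, 486, 716 and 679 CPM, and Col9a2 had 34.4, 49.4, 85.4 and 63.9 CPM. Palmd had 23.3, 45.3, 104 and 142 CPM. Mmp13, Palmd and Sorbs2 thus had a higher level with each further gene, whereas the collagens were about level between 2 and 3 genes. From 2 to 3 genes, however, the intervals overlapped for Palmd (88.3 to 123 and 113 to 177 CPM) and Sorbs2 (109 to 147 and 141 to 212 CPM). Of the 368 Mmp13 UMIs in cells with 3 genes, 1 cell held 131, so the last step of Mmp13 depends on that cell. Mgp lay between 61812 and 66891 CPM. Mmp3 had 1118, 1798, 1881 and 805 CPM, with the lowest level in the 31 cells that had all 3 genes. Of the 454 Mmp3 UMIs in cells with 3 genes, 1 cell held 206 and another 134. With 2 genes, 1 cell held 586 of 2666. Mmp3 was seen in 43.9, 44.6, 45.3 and 35.5% of the cells, so its levels with 2 and 3 genes depend on few cells. Acan lay at 2.12 to 3.55 CPM.

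**Figure D5:**
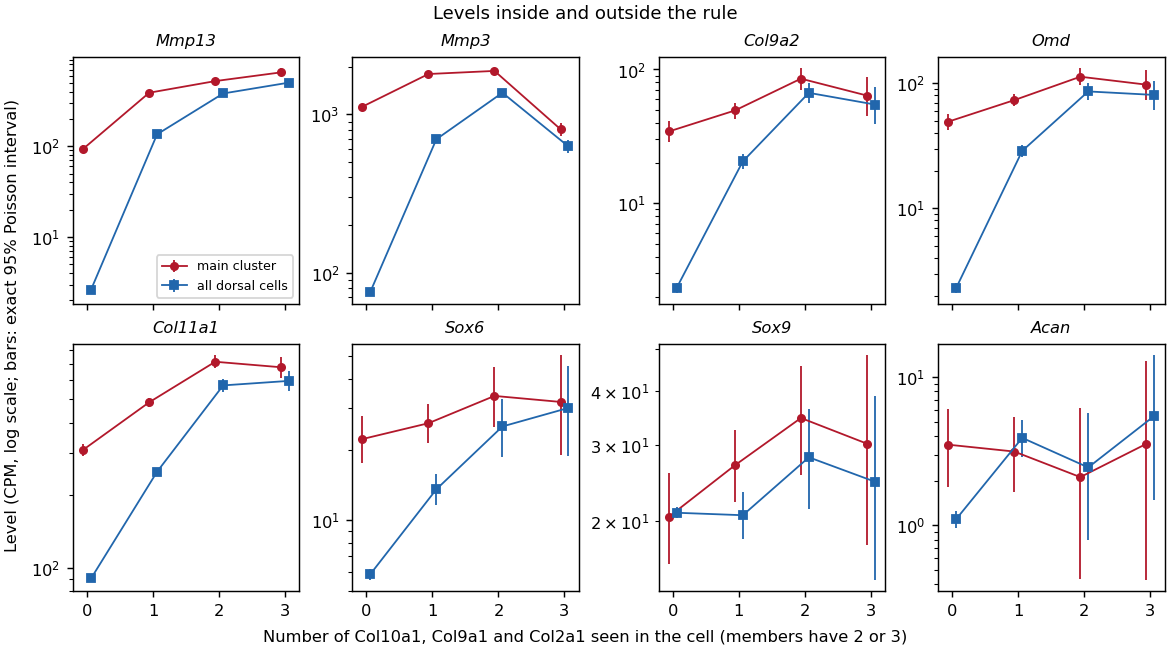
Level in CPM (log axes) of 8 genes against the number of rule genes seen in the cell, from 0 to 3, in the main cluster (circles) and in all dorsal cells (squares), with exact Poisson intervals. Mmp13 in the main cluster is at 93.7, 389, 523 and 653 CPM, while Acan lies between 2.12 and 3.55 CPM there.

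The collagen genes did not pair evenly in the main cluster. Of the 216 cells with Col9a1, 44.4% (37.7 to 51.3%) also had Col2a1, against 9.80% (7.06 to 13.2%) of the 398 without Col9a1. Col10a1 ran the other way with Col9a1, in 22.7% (17.3 to 28.9%) of the cells with Col9a1 and 37.7% (32.9 to 42.7%) of the cells without it. Col10a1 was seen in 31.9% (24.1 to 40.4%) of the cells with Col2a1 and 32.6% (28.4 to 37.0%) of the cells without it. Col9a2 followed Col9a1, in 60.6% of the cells with Col9a1 and 37.7% of those without. Mmp13 was seen in a larger share of the cells with each of the collagens, in 24.5% of cells with Col9a1 and 13.1% without, in 28.1% with Col2a1 and 14.0% without, and in 23.1% with Col10a1 and 14.2% without. Cells with Col10a1 were deeper, at a median of 15541 UMIs against 13469 without it, while cells with Col9a1 were shallower, at 13191.5 UMIs against 14480.0 without it. The part of depth in these shares was not tested.

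Members of the main cluster were therefore set side by side by Col10a1. The 61 with it had a median of 15879 UMIs and the 65 without it 13469. All 65 without it had, by the rule, both Col9a1 and Col2a1. Of 2931 genes at 50 CPM or more on either side, 12 were at least 2-fold higher (0.409%) and 10 at least 2-fold lower (0.341%) in the members with Col10a1. Spp1 had 5740.1 CPM in members with Col10a1 and 2437 CPM in members without it. Col8a1, a short-chain collagen related to collagen X, had 110.4 CPM in members with Col10a1 and 20.7 CPM in members without it. Hp, haptoglobin, had 539 CPM in members with Col10a1 and 192 CPM in members without it, although it was seen in 24.6% of members with Col10a1 and 30.8% of members without it. Bmp4 had 140.0 CPM in members with Col10a1 and 65.2 CPM in members without it.

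Lower in members with Col10a1 were Dlk1, Chil1, Mmp3 and Grem1 among others. Mmp3 had 890.0 CPM in members with Col10a1 and 2294 CPM in members without it, and was seen in 41.0% of members with Col10a1 and 44.6% of members without it. The BMP antagonist Grem1 had 106 CPM in members with Col10a1 and 257 CPM in members without it. Dlk1 had 19.7 CPM in members with Col10a1 and 75.5 CPM in members without it. Mmp13 had 507 CPM in members with Col10a1 and 616 CPM in members without it, Sox9 29.6 CPM in members with Col10a1 and 37.2 CPM in members without it, and Col11a1 645 CPM in members with Col10a1 and 770 CPM in members without it. Mmp13 was seen in 31.1% of the members with Col10a1 and 24.6% of those without it, so that level and share ran opposite ways. The levels rest on few members. A single member held 243 of the 595 Mmp13 UMIs without Col10a1, and another held 131 of the 514 with it. Over all 147 members the same split, with 75 and 72 members and 10 genes higher (0.341%) and 12 lower (0.41%) of 2930, also carried the macrophage genes Marco, Ccl12, Arg1 and Pf4, and 2 members lay in the cluster led by macrophage genes.

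Members were also compared with other dorsal mesenchymal cells, chosen by paired marker genes. A cell entered such a set when it held at least 2 of the set's genes. Of the members 10.9% met the set of Gdf10, Barx1 and Osr2, against 17.8% of the other dorsal cells. Of the members 5.44% met the set of Tnfsf8 and Il33 and 2.04% that of Sele and Cxcl5, against 14.4% and 8.74% of the other dorsal cells. For Grem1 and Nkx6-1 the share was 4.08% of members (1.51 to 8.67%) and 3.38% of the other dorsal cells, which lay within the interval. Members were also shallower than the other dorsal cells. After thinning to 8000 UMIs the shares were 2.04% of members and 9.91% of the other dorsal cells for Gdf10, Barx1 and Osr2. For Grem1 and Nkx6-1 they were 2.72% of members and 1.56% of the other dorsal cells, for Tnfsf8 and Il33 2.04% of members and 6.62% of the other dorsal cells, and for Sele and Cxcl5 0% of members and 4.36% of the other dorsal cells. Outside the members, the Gdf10, Barx1 and Osr2 set had 23.9 CPM of Col10a1, 1.17 CPM of Col9a1, 13.4 CPM of Mmp13 and 28350.5 CPM of Mgp. The Grem1 and Nkx6-1 set had 24.5 CPM of Col10a1 and 1.66 CPM of Col9a1. The Tnfsf8 and Il33 set had 3.14 CPM of Col10a1 and the Sele and Cxcl5 set 0.696 CPM, beside 10.0 CPM in the free RNA.

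In the ventral library, 6 of 10649 cells met the same rule (0.0563%, 0.0207 to 0.123%), and 692 had 1 of the genes. The 6 cells had 18 UMIs of Col10a1, 7 of Col9a1, 5 of Col2a1 and none of Mmp13, Dio2 or Col9a2. Over all cells, Mmp13 had 14.8 CPM in the dorsal and 0.0711 CPM in the ventral library, a log2 ratio of 7.70 (7.03 to 8.45). Col2a1 had 1.88 CPM in the dorsal and 0.0395 CPM in the ventral library, and Col10a1 had 13.1 CPM in the dorsal and 1.62 CPM in the ventral library. Col9a1 was at a similar level, with 4.64 CPM in the dorsal and 5.41 CPM in the ventral library, and 621 ventral cells had it alone. Acan had the opposite difference, with 1.28 CPM in the dorsal and 30.3 CPM in the ventral library. Col11a1 also differed that way, with 104.6 CPM in the dorsal and 352 CPM in the ventral library. Col2a1 was seen in 8 and Mmp13 in 10 ventral cells, against 1722 with Acan. With 1 library per domain these differences have no replicate check.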

How the data were processed

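Per the labels' protocols, cells of 15 hearts were pooled into 1 dorsal and 1 ventral culture and captured with 10x Genomics 3' v3 reagents. Reads had gone through Cell Ranger 3.0.2 on mm10, per the submitters' processing notes. The annotation release is not given in the sources used here. Raw UMI counts were deposited by the authors for 28692 genes and 6794880 barcodes per library, without a choice of cells.

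Cells were barcodes with at least 8000 UMIs and at most 20% mitochondrial UMIs. UMIs were summed over groups of cells and scaled to CPM, with no pseudocount. Intervals were exact Poisson for CPM, exact conditional binomial for ratios and Clopper-Pearson for shares, all at 95%. In ratios, a count of 0 was given a limit of 3 counts. With 1 library per domain no test was made, and 2-fold was a size and not a call. Genes counted needed 20 CPM on either side, or 50 CPM within the members' cluster, and list genes 50 UMIs. The 58 gene symbols found on 2 IDs were not used. The named genes were the 15 highest and 10 lowest ratios, leaving out the rule genes, mitochondrial, ribosomal protein and provisional names, with up to 6 genes of each list by size and the defining markers of other cell types. Further list genes, such as Ptch1, Fos and Runx2, and all genes named within the members' cluster were chosen after their values were seen. Members and lists were chosen with earlier results of these data known.

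Clustering used 2000 variable genes without the rule genes, 30 principal components, 15 neighbours and Leiden resolution 1 (scanpy 1.11.5, leidenalg 0.10.2). Scrublet's automatic threshold marked 0.0896% of dorsal cells and so did not work. Doublets were kept, and removing the 7.14% of cells with the highest scores, which took out 15 members, was an alternative. The other alternatives were other UMI and mitochondrial limits, stricter rules, thinning, other comparison cells, the mean of each cell's CPM, TMM scaling with edgeR 4.0.16 and other expression minimums. Calculations used numpy 2.4.6, scipy 1.17.1 and pandas 2.3.3 in Python 3.11.15, and the ratio step was tested on simulated data. Gene positions came from GENCODE M21 on GRCm38. Promoters were looked up for 5 genes in RefSeq and 4 matched, with none for Col2a1. Those of Mmp13, Mmp3 and Col10a1 were searched for motifs, and that of Col9a1 was not.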

Additional observations from a re-analysis of the deposited data

Results flagged for a closer look

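Dorsal barcodes with 2000 to 7999 UMIs lay outside the cells described above, and there were 626 of them. Among these, 7 met the rule, and they held 173 CPM of Mmp13. Each of them held at most 7999 UMIs, so this level rests on few Mmp13 UMIs, and it has no interval. They are given because barcodes below the depth limit of the reported comparisons also met the rule. The alternative with a minimum of 2000 UMIs took them in and gave 154 members of 9552 cells (1.61%). Their number is small beside the 147 members.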

How the results depend on the processing

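The share of members depended on the rule and on depth. It was 1.09% with a minimum of 15000 UMIs, 0.829% when each gene needed 2 UMIs, 0.403% when all 3 genes were needed and 1.11% after thinning to 8000 UMIs, against 1.65% as reported. The counts of 182 genes at least 2-fold higher and 234 lower moved with the setting. Thinning gave 402 lower, and members of the main cluster only, an alternative added after seeing the data, gave 365 lower. Without an expression minimum they were 1331 higher and 1332 lower, and with a minimum of 100 CPM 60 higher and 55 lower. When all 147 members were set against the other cells of the main cluster, 43 genes were higher and 40 lower, 1 list against 7 had a median of at least 2-fold, and 4 of the 25 genes had a 2-fold ratio in the reported direction. In that setting Dio2 had a log2 ratio of -0.68, Mmp3 -0.34, Mia -0.15, Igf2 -0.28 and Cxcl13 0.36, and the cell cycle and mural lists had medians of 0.045 and 0.23, each opposite in sign to the value reported. The macrophage list had a median of 4.24 there against -0.76 as reported, and it was the 1 list at 2-fold, while fibroblast had 0.12, glycolysis 0.23, and FGF and IGF -0.13, also opposite in sign. The 147 members of that setting included the 21 outside the main cluster, so it was not a comparison within that cluster. Macrophage markers summed to 559 CPM in all 147 members. They summed to 38.9 CPM in the 126 members of the main cluster and 31.4 CPM in its other cells. With members of the main cluster only, set against the other dorsal cells, the macrophage median was -4.15. The cause was not tested. Under each of the other alternatives all 25 genes kept their direction and a 2-fold ratio. TMM scaling moved the median of all genes to -0.02. Depth limits the genes with few UMIs: Acan rests on 9 UMIs and Alpl on 1. No paired analysis was possible because there was 1 library per domain.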
